A study of Mus musculus with 24 samples.

Results

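The 9 genes described here, Acat2, Hmgcs1, Mvk, Pmvk, Mvd, Idi1, Fdps, Ggps1 and Fdft1, belong to the mevalonate arm of cholesterol synthesis, the run of enzymes that turns acetyl-CoA into farnesyl diphosphate, and to the enzymes that take farnesyl diphosphate onward. They were taken by gene name from a list, out of 14995 genes in the table, and all 9 passed the filter on low counts. Messenger RNA was counted in 24 mouse livers collected 20 weeks after surgery, 8 in each of 3 groups. RYGB mice had Roux-en-Y gastric bypass, surgery after which food misses most of the stomach and the first part of the small bowel. WM mice were held at the body weight of the RYGB mice by feeding them fewer calories, and the labels do not say whether they were also operated on. Sham mice had sham surgery and are set against both. The series title calls the mice obese, and the labels leave out their strain, sex, age, diet and feeding state at collection. No transgene or deletion is named in any group.

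Cells build cholesterol in the cytosol and the endoplasmic reticulum from acetyl-CoA, and the liver is a main site of this synthesis. The transcription factor SREBP-2, encoded by Srebf2, has an escort, Scap, that the Insig proteins hold back. When sterols run low, Insig lets go of Scap. SREBP-2 then switches on most genes of the pathway, among them the HMG-CoA synthase encoded by Hmgcs1. Farnesyl diphosphate is the branch point. Squalene synthase commits it to sterols, while geranylgeranyl diphosphate synthase lengthens it for protein prenylation and other products that are not sterols.

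RefSeq promoter sequence was at hand for 7 of the 9 genes, and 3 windows are shown because these genes behaved differently in the data: Hmgcs1 was lower in WM than in Sham livers, Mvk was higher than Sham in RYGB and WM livers, and Ggps1 passed no test. Each is the 250 bases before the annotated start on GRCm38.p6, written 5′ to 3′ on the gene's strand. Capitals mark the sterol element letters TCACNCCAC and the overlapping form CACCCCAC, and CCAAT on either strand (ATTGG as printed where it lies on the other strand).
Hmgcs1, chr13:119690101-119690350, plus strand: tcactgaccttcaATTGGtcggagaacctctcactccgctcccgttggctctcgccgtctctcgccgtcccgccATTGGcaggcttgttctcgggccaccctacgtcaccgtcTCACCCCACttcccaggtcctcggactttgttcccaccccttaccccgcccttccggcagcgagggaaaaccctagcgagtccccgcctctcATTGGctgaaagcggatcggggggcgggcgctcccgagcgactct
Mvk, chr5:114444019-114444268, plus strand: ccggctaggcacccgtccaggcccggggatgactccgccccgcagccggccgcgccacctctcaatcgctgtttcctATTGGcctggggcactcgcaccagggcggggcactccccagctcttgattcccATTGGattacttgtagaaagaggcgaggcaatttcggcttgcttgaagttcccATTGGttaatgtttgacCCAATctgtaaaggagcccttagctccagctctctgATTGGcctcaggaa
Ggps1, chr13:14063489-14063738, minus strand: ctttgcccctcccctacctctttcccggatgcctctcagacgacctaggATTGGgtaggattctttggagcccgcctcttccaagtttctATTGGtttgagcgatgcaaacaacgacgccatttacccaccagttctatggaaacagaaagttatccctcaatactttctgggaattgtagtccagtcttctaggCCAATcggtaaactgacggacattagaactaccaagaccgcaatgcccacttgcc

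Both strands of each window were searched. TCACNCCAC was found in 1 of the 7 genes, Hmgcs1, where it lies 137 to 129 bases before the start, and in 1.05% of 32851 promoter windows of the same length. CACCCCAC, which overlaps that match in Hmgcs1, was also found in Acat2, and in 2.58% of all windows. The 7 genes have 8 windows, since Pmvk has 2. CCAAT was found in 6 of the 8 windows, from 6 of the 7 genes, against 33.8% of all windows, and the GC box GGGCGG in 5 of the 8, against 32.7%. CACGTG was found in 0 of the 8, and in 6.02% of all windows. These matches are letters in a window and do not show binding.

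Counts per library summed to 14002193 to 19958019 in RYGB, 14208021 to 22766612 in WM and 13659647 to 17391377 in Sham livers. Levels are given in CPM, counts per library size scaled by TMM, and differences as log2 fold changes ± SE. A gene counts as called at an adjusted p under 0.05 in edgeR's quasi-likelihood test over 13121 genes. Where groups are said not to overlap, the share of all tested genes that also do not overlap was not counted. The labels do not say more of the replicates than that each is a liver of its group, so that p-values measure the spread between these samples. Summed hepatocyte markers (9 of 10 in the table, all 9 detected in every library) spanned 89410.0 to 150003 CPM in RYGB, 81005 to 148879 CPM in WM and 35849 to 81118 CPM in Sham livers. Alb was the largest part of that sum by its mean in each group. Of the 9 markers 6 were called higher and Apob was called lower in RYGB against Sham (-1.23, 7 of 8 livers below the lowest Sham liver), and in WM 7 were called higher and Apob lower (-1.28). Hnf4a passed in neither (0.42 and 0.49). Stellate cell and fibroblast markers (8 of 8) spanned 254 to 357, 210.1 to 359 and 380.2 to 779 CPM in the same order of groups, and macrophage markers (8 of 8) 167 to 840.1, 193 to 558 and 67.0 to 280.0 CPM. In whole tissue, fewer cells of a type and less RNA per cell cannot be told apart, and the part of these marker levels in the results was not tested. Pancreatic acinar markers (19 of 23 in the table) summed to 3395 CPM in RYGB 19, 3277 CPM in RYGB 18 and 1492 CPM in Sham 17, against at most 188 CPM in any other library, and results that change without these 3 libraries are marked.

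After gastric bypass, 8 of the 9 genes rose against Sham, and Ggps1 did not pass the test. Over all tested genes 23.7% were called in this comparison, 12.7% higher and 11.0% lower. The median log2 fold change of the 9 was 1.56, against -0.015 over all tested genes. In WM livers 5 of the 9 rose against Sham (Mvk, Pmvk, Idi1, Fdps and Fdft1), Hmgcs1 fell, and Acat2, Mvd and Ggps1 did not pass. There 31.4% of all tested genes were called, 16.5% higher and 15.0% lower, and the medians were 0.82 for the 9 and -0.0079 for all. RYGB against WM gave 1 called gene of the 9, Hmgcs1, which was higher. At an unadjusted edgeR p under 0.05, 7 of the 9 were higher and 0 lower, against 741 higher and 715 lower of 13121 tested genes. In that comparison 1.49% of all tested genes were called, 1.06% higher and 0.434% lower, and the medians were 0.71 and -0.016. These comparisons share libraries, so that they are not independent of one another. Scaled by library totals, the median of all genes was -0.36 in RYGB and -0.33 in WM against Sham, and the higher share of all called genes was 17.6% in place of 53.6% for RYGB and 22.4% in place of 52.4% for WM. Under that scaling 6 of the 9 genes were called for RYGB, all higher. For WM 4 were called: Mvk, Pmvk and Fdft1 higher and Hmgcs1 lower. The share of all tested genes called under that scaling is not given here. The trend of expression on transcript length also moved with the groups. Its slope, in log2 units per doubling of length, was -0.10 to 0.015 in RYGB, -0.17 to 0.055 in WM and 0.048 to 0.22 in Sham libraries, so that RYGB and Sham did not overlap. After correction for GC content and transcript length 8 of the 9 genes rose in RYGB and 5 in WM against Sham.

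**Figure D1:**
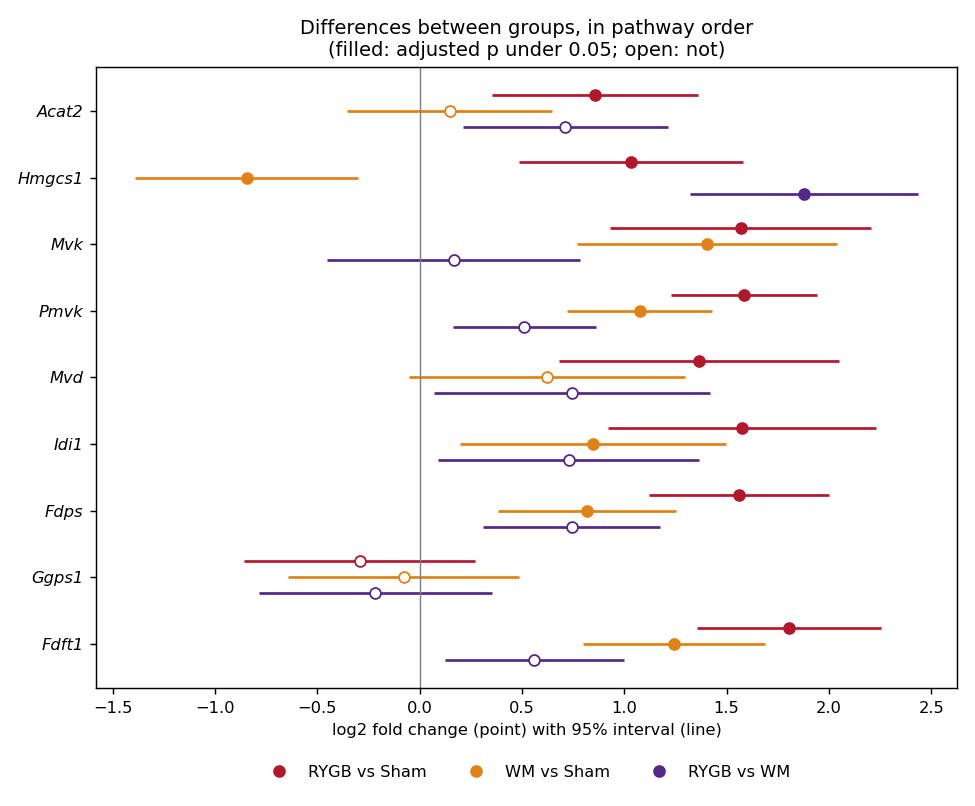
Log2 fold change of each of the 9 genes (points) with its 95% interval (bars) for RYGB against Sham, WM against Sham and RYGB against WM. Of the 9, Ggps1 alone lies below 0 in RYGB against Sham, and Hmgcs1 lies at 1.03, -0.85 and 1.88 in the 3 comparisons.

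Gene positions are those of GENCODE M21 on GRCm38. Acat2 (chr17:12942890-12960747, minus strand) encodes the cytosolic thiolase that joins acetyl-CoA units into acetoacetyl-CoA. It had a lowest, median and highest level of 63.1, 134 and 161 CPM in RYGB livers, 45.2, 69.4 and 143 CPM in WM livers and 37.8, 67.7 and 114 CPM in Sham livers. The groups overlapped, with 7 of 8 RYGB livers above the Sham median and above the WM median. Acat2 rose in RYGB against Sham livers by 0.86 ± 0.25 (adjusted p = 0.0113), and its means were 123 ± 37.5 CPM in RYGB and 68.1 ± 26.0 CPM in Sham livers (SD, n = 8 each). This call was lost under scaling by library totals (0.52, adjusted p = 0.0946) and without the 3 libraries with acinar transcripts (0.67, adjusted p = 0.0898). WM against Sham gave 0.15 ± 0.24 (adjusted p = 0.684, 95% interval -0.35 to 0.65) and RYGB against WM 0.71 ± 0.25 (adjusted p = 0.19). WM 25 stood at 143 CPM, above the next WM liver at 82.6 CPM, and without it RYGB against WM was called (0.91, adjusted p = 0.0336) and WM against Sham was -0.053. Acat3, a near copy beside Acat2 on chromosome 17, was counted apart, and the labels do not say how reads that match both were treated, so the values of Acat2 and Acat3 are uncertain to that extent.

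Hmgcs1 (chr13:119690379-119708260, plus strand) encodes the cytosolic HMG-CoA synthase, a classic target of SREBP-2, and was the one gene of the 9 that moved in opposite directions in RYGB and WM against Sham. Its lowest, median and highest levels were 251, 497 and 856 CPM in RYGB livers, 67.1, 139 and 254 CPM in WM livers and 159.9, 268 and 358 CPM in Sham livers. All 8 WM livers lay below the Sham median, 7 of 8 RYGB livers lay above it, and 7 of 8 RYGB livers exceeded the highest WM liver. Hmgcs1 rose in RYGB against Sham livers by 1.03 ± 0.27 (adjusted p = 0.00541) and fell in WM against Sham livers, at -0.85 ± 0.27 (adjusted p = 0.0158). Between RYGB and WM livers the difference was 1.88 ± 0.27, or 3.68-fold (adjusted p = 0.000138), and Hmgcs1 ranked 14 by p among all tested genes. Means were 551 ± 211 CPM in RYGB, 149.9 ± 71.1 CPM in WM and 269.6 ± 63.0 CPM in Sham livers (SD, n = 8 each). The rise in RYGB was not called under library totals (0.68, adjusted p = 0.0617), and the fall in WM was not called after correction for GC content and transcript length (-0.53, adjusted p = 0.138). RYGB against WM was called under every alternative and with each library left out, and spanned 1.76 to 2.03 when 1 library was left out.

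**Figure D2:**
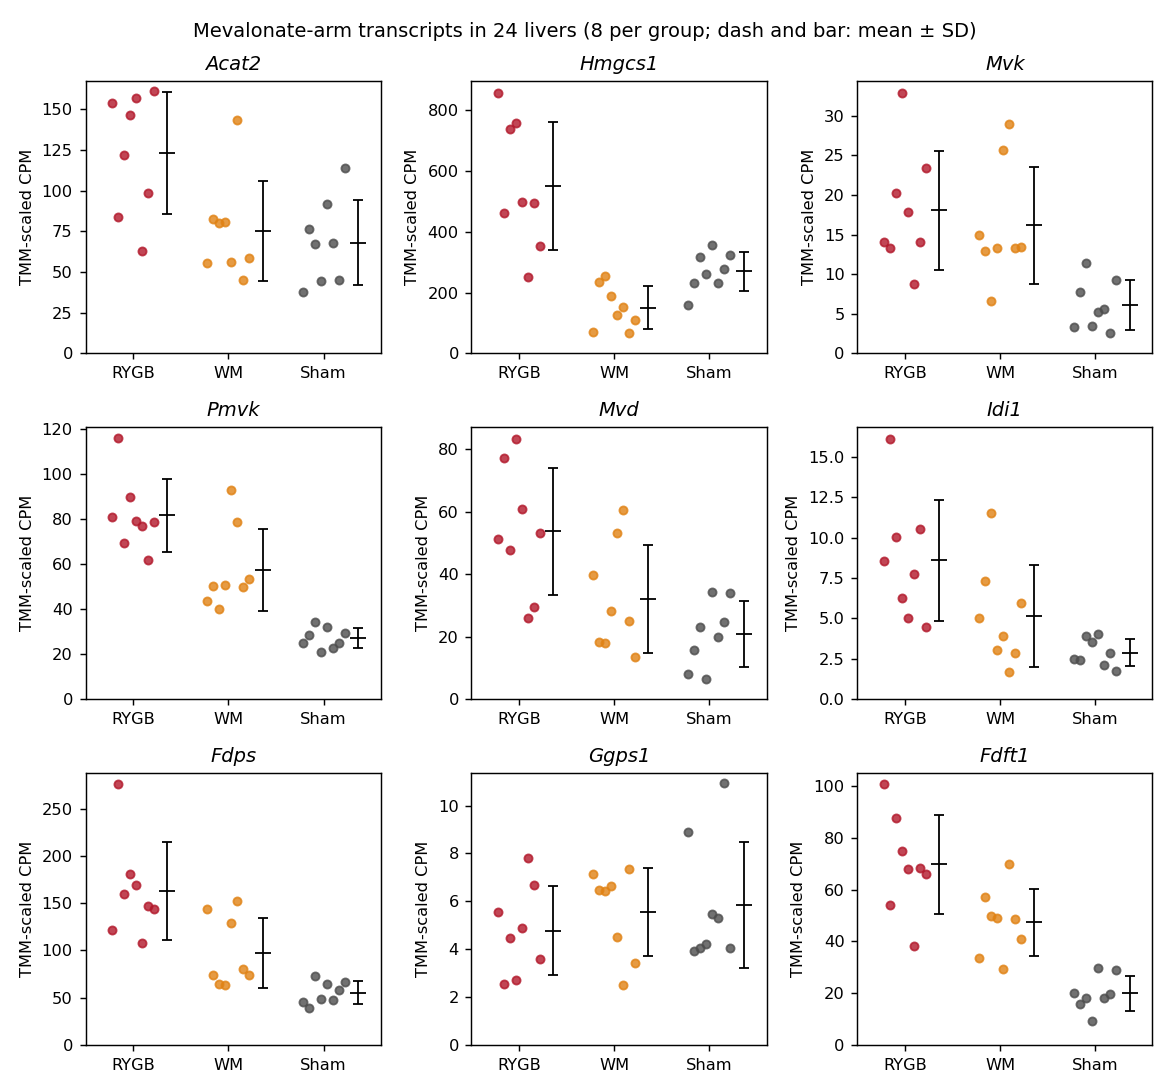
Level in CPM of each of the 9 genes, 1 panel a gene, with 1 point a liver and the groups RYGB, WM and Sham from left to right. Hmgcs1 is lowest in WM livers, and the RYGB points of Pmvk, Idi1, Fdps and Fdft1 lie wholly above their Sham points. The share of all genes separated in this way was not counted.

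The enzymes that carry mevalonate to isopentenyl diphosphate and its isomer each rose in RYGB against Sham livers. Mvk (chr5:114444269-114460591, plus strand) encodes mevalonate kinase and had a lowest, median and highest level of 8.77, 16.0 and 32.9 CPM in RYGB livers, 6.57, 13.4 and 29.0 CPM in WM livers and 2.59, 5.42 and 11.4 CPM in Sham livers. It rose by 1.57 ± 0.31 in RYGB (adjusted p = 0.000491) and by 1.40 ± 0.31 in WM (adjusted p = 0.001), with 7 of 8 livers of each above the highest Sham liver. The difference between RYGB and WM was 0.17 ± 0.30 (adjusted p = 0.927), with a 95% interval of -0.45 to 0.78, which leaves a change of either sign possible. Without the 3 libraries with acinar transcripts it was -0.042.

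Pmvk (chr3:89454541-89469013, plus strand), phosphomevalonate kinase, separated both treated groups from Sham. Levels spanned 62.0, 78.9 and 116 CPM (lowest, median, highest) in RYGB livers, 39.9, 50.5 and 92.7 CPM in WM livers and 21.1, 26.7 and 34.1 CPM in Sham livers. Neither treated group overlapped Sham, and all 8 RYGB livers lay above the WM median. Pmvk rose by 1.59 ± 0.17 in RYGB (adjusted p = 2.49e-07) and by 1.07 ± 0.17 in WM (adjusted p = 2.79e-05). The difference of RYGB from WM, 0.51 ± 0.17 (adjusted p = 0.17), did not pass, but was called after GC and length correction (0.60, adjusted p = 0.0188) and without WM 20 (0.64, adjusted p = 0.0358).

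Mvd (chr8:122433601-122443422, minus strand), mevalonate diphosphate decarboxylase, had a coefficient of variation of 37.8% in RYGB, 54.4% in WM and 50.5% in Sham livers. Its lowest, median and highest levels were 25.9, 52.3 and 83.2 CPM in RYGB livers, 13.4, 26.4 and 60.6 CPM in WM livers and 6.53, 21.4 and 34.4 CPM in Sham livers. Mvd rose in RYGB against Sham livers by 1.37 ± 0.33 (adjusted p = 0.00353), with all 8 RYGB livers above the Sham median and 6 above the highest Sham liver. WM against Sham gave 0.62 ± 0.33 (adjusted p = 0.154) and RYGB against WM 0.74 ± 0.33 (adjusted p = 0.372). Neither passed, and the interval for WM against Sham was -0.055 to 1.30.

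Idi1 (chr13:8885501-8892451, plus strand), the isomerase that makes dimethylallyl diphosphate from isopentenyl diphosphate, had few reads, with 32 to 81 counts per Sham library. Levels spanned 4.48, 8.16 and 16.1 CPM (lowest, median, highest) in RYGB livers, 1.66, 4.46 and 11.5 CPM in WM livers and 1.73, 2.65 and 4.00 CPM in Sham livers. RYGB and Sham livers did not overlap, while 4 of 8 WM livers exceeded the highest Sham liver and 1 lay below the lowest. Idi1 rose by 1.57 ± 0.32 in RYGB (adjusted p = 0.00062) and by 0.85 ± 0.32 in WM (adjusted p = 0.0415). The WM call was the least stable of the 9: it was lost when any 1 of 9 libraries was left out, and in a fit of the compared groups alone (adjusted p = 0.0512), under library totals (0.173), by limma-trend (0.109) and without the 3 libraries with acinar transcripts (0.0608). For RYGB against WM the value was 0.73 ± 0.31 (adjusted p = 0.345).

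Farnesyl diphosphate synthase, encoded by Fdps, makes the branch-point intermediate. Levels of Fdps (chr3:89093588-89101959, minus strand) spanned 107, 153 and 276 CPM (lowest, median, highest) in RYGB livers, 63.0, 77.4 and 152 CPM in WM livers and 38.8, 53.2 and 73.0 CPM in Sham livers. RYGB and Sham livers did not overlap, and 6 of 8 WM livers lay above the highest Sham liver. Fdps rose by 1.56 ± 0.22 in RYGB (adjusted p = 6.44e-06) and by 0.82 ± 0.21 in WM (adjusted p = 0.00412), and the WM call was lost under library totals (0.44, adjusted p = 0.075). RYGB against WM was 0.74 ± 0.21 (adjusted p = 0.0758), with all 8 RYGB livers above the WM median. That difference was called by DESeq2 (0.74, adjusted p = 0.0322), also under library totals, limma-trend and the GC and length correction, and without WM 1 (0.84) or WM 25 (0.86). In the annotation Fdps overlaps Gm43738 on the same strand and Mvd overlaps Gm20388 on the other. Hmgcs1 overlaps Gm48342 by 6190 bases and Idi1 overlaps Gm48574 by 323 bases, each on the other strand. None of these overlapping genes was analysed here.

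Of the enzymes that use farnesyl diphosphate, Fdft1 rose and Ggps1 did not pass. Fdft1 (chr14:63145150-63179578, minus strand) encodes squalene synthase and had a lowest, median and highest level of 38.1, 68.3 and 101 CPM in RYGB livers, 29.3, 48.8 and 69.7 CPM in WM livers and 9.20, 18.9 and 29.6 CPM in Sham livers. RYGB and Sham livers did not overlap, and 7 of 8 WM livers lay above the highest Sham liver. Fdft1 rose by 1.80 ± 0.22, or 3.49-fold, in RYGB (adjusted p = 1.09e-06) and by 1.24 ± 0.22 in WM (adjusted p = 7.42e-05). Between RYGB and WM the difference was 0.56 ± 0.21 (adjusted p = 0.263). In the annotation Fdft1 overlaps the last part of Ctsb, a gene on the other strand, by 774 bases, and the labels do not say whether reads were counted by strand. Ctsb stood at -0.066 in RYGB and -0.44 in WM against Sham on the log2 scale.

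Ggps1 (chr13:14050659-14063488, minus strand), geranylgeranyl diphosphate synthase, did not pass in any comparison. Its lowest, median and highest levels were 2.56, 4.66 and 7.82 CPM in RYGB livers, 2.50, 6.44 and 7.33 CPM in WM livers and 3.93, 4.76 and 11.0 CPM in Sham livers, and all 3 groups overlapped. The log2 fold changes were -0.29 ± 0.28 for RYGB against Sham (adjusted p = 0.469, interval -0.86 to 0.27), -0.078 ± 0.28 for WM against Sham (adjusted p = 0.857, interval -0.64 to 0.49) and -0.22 ± 0.28 for RYGB against WM (adjusted p = 0.876). The upper bound for RYGB against Sham, 0.27, lies below the lower bound of Fdft1, 1.35. Ggps1 had 31 to 123 counts per RYGB library, and by annotation it overlaps Arid4b on the other strand by 257 bases. Arid4b stood at -0.54 in RYGB and -0.76 in WM against Sham.

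**Figure D3:**
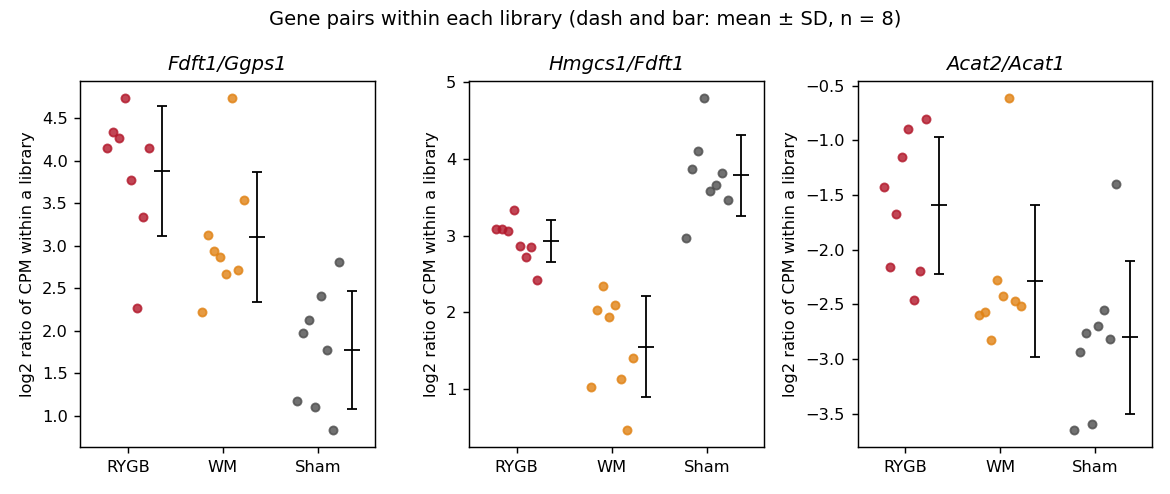
Log2 ratio of 2 genes within each library (1 point a liver) for RYGB, WM and Sham from left to right. For Hmgcs1 over Fdft1 the RYGB points lie wholly above the WM points.

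Ratios of 2 genes within a library do not depend on how libraries are scaled, apart from a prior count of 2. That count was scaled to library size and added to each gene before the log, and it weighs most where counts are low. Each difference was tested two-sided by exact permutation over 8 and 8 livers and adjusted over 12 tests, where the smallest p possible is 0.000155. The log2 ratio of Fdft1 to Ggps1, the sterol exit over the geranylgeranyl exit, averaged 3.88 ± 0.77 in RYGB, 3.10 ± 0.76 in WM and 1.77 ± 0.69 in Sham livers (SD). It was higher by 2.10 ± 0.37 (SE) in RYGB against Sham (exact permutation adjusted p = 0.0014, 8 of 8 livers above the Sham median) and by 1.33 ± 0.36 in WM against Sham (exact permutation adjusted p = 0.00266, 8 of 8). In RYGB against WM it was 0.78 ± 0.38 (exact permutation adjusted p = 0.0682, 7 of 8), which did not pass.

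The ratio of Hmgcs1 to Fdft1, an early over a late step, averaged 2.93 ± 0.28 in RYGB, 1.55 ± 0.65 in WM and 3.79 ± 0.53 in Sham livers. Both treated groups lay lower than Sham, with a difference of -0.86 ± 0.21 in RYGB (exact permutation adjusted p = 0.00186) and -2.23 ± 0.30 in WM (exact permutation adjusted p = 0.000622). RYGB stood above WM by 1.38 ± 0.25 (exact permutation adjusted p = 0.000622). WM livers overlapped neither RYGB nor Sham livers.

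For Acat2 over the mitochondrial Acat1, the log2 ratio was -1.60 ± 0.63 in RYGB, -2.29 ± 0.69 in WM and -2.80 ± 0.70 in Sham livers. Acat1 itself stood at -0.35 ± 0.19 in RYGB (adjusted p = 0.179) and -0.34 ± 0.19 in WM against Sham (adjusted p = 0.167). It was called lower in both under library totals (-0.68 and -0.61) and after GC and length correction (-0.57 and -0.57). Only RYGB against Sham passed among the 3 tests of the ratio (1.21 ± 0.33, exact permutation adjusted p = 0.00606), with 0.52 ± 0.35 for WM against Sham (exact permutation adjusted p = 0.161) and 0.69 ± 0.33 for RYGB against WM (exact permutation adjusted p = 0.0682).

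Single livers differed in how the 9 genes stood together. RYGB 22 was the lowest RYGB liver for 6 of them (Acat2, Hmgcs1, Mvk, Mvd, Fdps and Fdft1) and the highest for Ggps1. WM 25 was the highest WM liver for 5 (Acat2, Mvk, Mvd, Fdps and Fdft1) and the lowest for Idi1 and Ggps1. WM 25 also had the steepest trend of expression on GC content. It was 0.947 log2 units per 10 percentage points of GC, against -0.392 to 0.379 in the other WM libraries. GC content was 40.8% for Idi1, 45.7% for Ggps1 and 50.1% for the median gene. For the 5 genes highest in WM 25 it was 50.8% (Acat2), 59.3% (Mvk), 59.2% (Mvd), 52.9% (Fdps) and 52.0% (Fdft1). Hmgcs1 (43.3%) and Pmvk (56.3%) were neither highest nor lowest in WM 25. The part of the GC trend in the results was not tested beyond the GC and length correction named above.

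**Figure D4:**
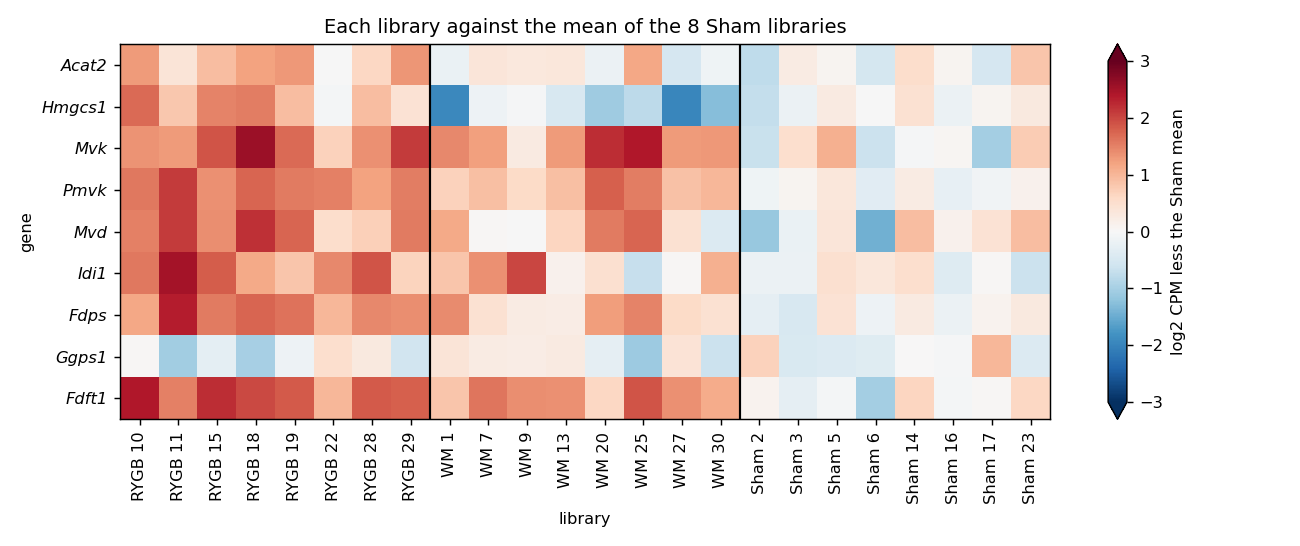
Heat map of the 9 genes (rows) in 24 livers (columns, grouped as RYGB, WM and Sham), coloured by log2 CPM less the Sham mean of that gene. In RYGB 22, 6 of the 9 genes are at their lowest RYGB level, and Hmgcs1 is below the Sham mean in all 8 WM columns.

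With the 3 groups pooled, the levels of the 9 genes were loosely related within groups. After the group mean was taken from each log2 CPM, the 36 pairs had a median Pearson r of 0.14 over 24 libraries, between -0.69 for Mvk with Ggps1 and 0.73 for Mvd with Fdps, and 14 pairs were negative. Each gene's r with the mean of the others was highest for Mvd (0.64), Acat2 (0.59) and Fdft1 (0.54), and negative for Idi1 (-0.29) and Ggps1 (-0.57). By group, Acat2, Hmgcs1, Pmvk, Mvd, Fdps and Fdft1 stood at 0.69 to 0.88 in Sham livers (n = 8). The same genes stood at 0.17 to 0.82 in RYGB and 0.046 to 0.55 in WM livers (n = 8 each). In Sham, RYGB and WM livers, Mvk stood at 0.39, 0.46 and 0.17 and Ggps1 at -0.39, -0.77 and -0.60. Idi1 stood at -0.058, -0.16 and -0.59 in that order. After GC and length correction Idi1 stood at 0.036 and the median pair at 0.027. The points share libraries, depth and base composition, so these are descriptions. Outside the 9, the genes whose residual levels were most like the mean of the 9 were Trabd (r = 0.79), Nedd8 (0.78), Rdh11 (0.76), Sufu (0.75), Fasn (0.74), Coq9 (0.73), Nsdhl (0.72), Chrna4 (0.72), Lss (0.72) and Med20 (0.72). Of these, Sufu and Chrna4 had low levels. Sufu averaged 1.49, 1.70 and 2.07 CPM and Chrna4 1.60, 0.27 and 1.06 CPM in RYGB, WM and Sham livers. Without the 2 libraries whose mean of the 9 lay farthest from the median, r of the 10 genes was 0.56 (Sufu) to 0.72 (Nsdhl). Over the same 10 genes r was 0.58 to 0.71 after the GC and length correction. The list depended on the setting: 4 of the 10 were still among the 10 most alike after that correction (Trabd, Nedd8, Rdh11 and Sufu), where Msmo1 (0.75) and Sqle (0.75) came first, and 5 under library totals.

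The enzymes after Fdft1, from squalene to cholesterol, were mostly higher in RYGB livers. Of 12 tested, 11 rose against Sham (median 1.59), where 12.7% of all tested genes were called higher. Sc5d, a desaturase of the late steps, did not pass at 0.32 ± 0.18 (adjusted p = 0.196). It was called after GC and length correction (0.44, adjusted p = 0.0172). Sqle, the epoxidase that takes squalene to its epoxide, rose by 2.59 ± 0.26 (adjusted p = 4.19e-08) and averaged 67.1 ± 17.2 CPM in RYGB, 37.5 ± 10.6 CPM in WM and 11.1 ± 5.21 CPM in Sham livers (SD, n = 8 each). Cyp51, a lanosterol demethylase, rose by 2.12 ± 0.18 (adjusted p = 3.70e-09). In WM livers 8 of 12 rose (median 0.93), where 16.5% of all tested genes were called higher. Among them were Ebp, a sterol isomerase, at 1.32 ± 0.16 (adjusted p = 5.92e-07) and Cyp51 at 1.44 ± 0.18 (adjusted p = 7.49e-07). Dhcr7, the last reductase, did not pass at 0.24. Sc5d did not pass either, at -0.44 ± 0.18 (adjusted p = 0.0571), with 7 of 8 WM livers below the Sham median. DESeq2 called 8 genes of this list higher and 1 lower in WM against Sham. RYGB against WM gave 4 of 12 higher, Lss, Cyp51, Msmo1 and Sc5d (median 0.60), where 1.06% of all tested genes were called higher. Lss, lanosterol synthase, differed by 1.42 ± 0.23 (adjusted p = 0.000577) and Msmo1, a sterol oxidase, by 1.02 ± 0.23 (adjusted p = 0.0118), while Tm7sf2 stood at -0.16.

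A list of genes of sterol sensing and uptake held 16 tested genes. In RYGB against Sham 1 rose, Nr1h3, and 1 fell, Npc1, with a median of 0.078, where 23.7% of all tested genes were called. Nr1h3, the sterol receptor LXR alpha, rose by 0.78 ± 0.19 in RYGB (adjusted p = 0.00392) and by 1.17 ± 0.20 in WM (adjusted p = 4.60e-05). Npc1, which moves cholesterol out of lysosomes, stood at -0.50 ± 0.17 in RYGB against Sham (adjusted p = 0.0284). The Npc1 call was lost after GC and length correction (-0.32, adjusted p = 0.215) and without Sham 5, Sham 6, Sham 17, RYGB 15 or RYGB 28 in turn (highest adjusted p 0.0661). Srebf2 stood at 0.73 ± 0.28 in RYGB against Sham (adjusted p = 0.0563), -0.10 ± 0.28 in WM against Sham (adjusted p = 0.81) and 0.83 ± 0.28 in RYGB against WM (adjusted p = 0.174). The first and last of these were called after GC and length correction (adjusted p = 0.00513 and 0.00515), and the first also by DESeq2 (adjusted p = 0.0426), with the compared groups alone (0.033) and without Sham 3, Sham 5, WM 25, RYGB 22 or RYGB 28 in turn. The last was also called without WM 25 (adjusted p = 0.0331).

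In WM against Sham 4 of the 16 rose (Nr1h3, Scap, Stard4 and Npc2) and 1, Insig2, fell (median 0.044). These 5 of 16 are a share close to the 31.4% called over all tested genes. Insig2, which holds the SREBP escort in the endoplasmic reticulum, fell by 1.23 ± 0.20 (adjusted p = 2.62e-05). It averaged 365 ± 117 CPM in RYGB, 157 ± 44.4 CPM in WM and 369 ± 69.0 CPM in Sham livers (SD, n = 8 each), and WM livers overlapped neither other group. Insig2 was the 1 gene of the 16 called in RYGB against WM (1.22 ± 0.20, adjusted p = 0.000568, list median -0.14), where 1.49% of all tested genes were called. Its paralogue Insig1 stood at 0.22, 0.0062 and 0.21 in RYGB against Sham, WM against Sham and RYGB against WM, with no call. In RYGB against Sham Insig2 stood at -0.013. Mylip, a ubiquitin ligase of the LDL receptor, stood at -0.18 in RYGB against WM, and at -0.83 without RYGB 11.

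**Figure D5:**
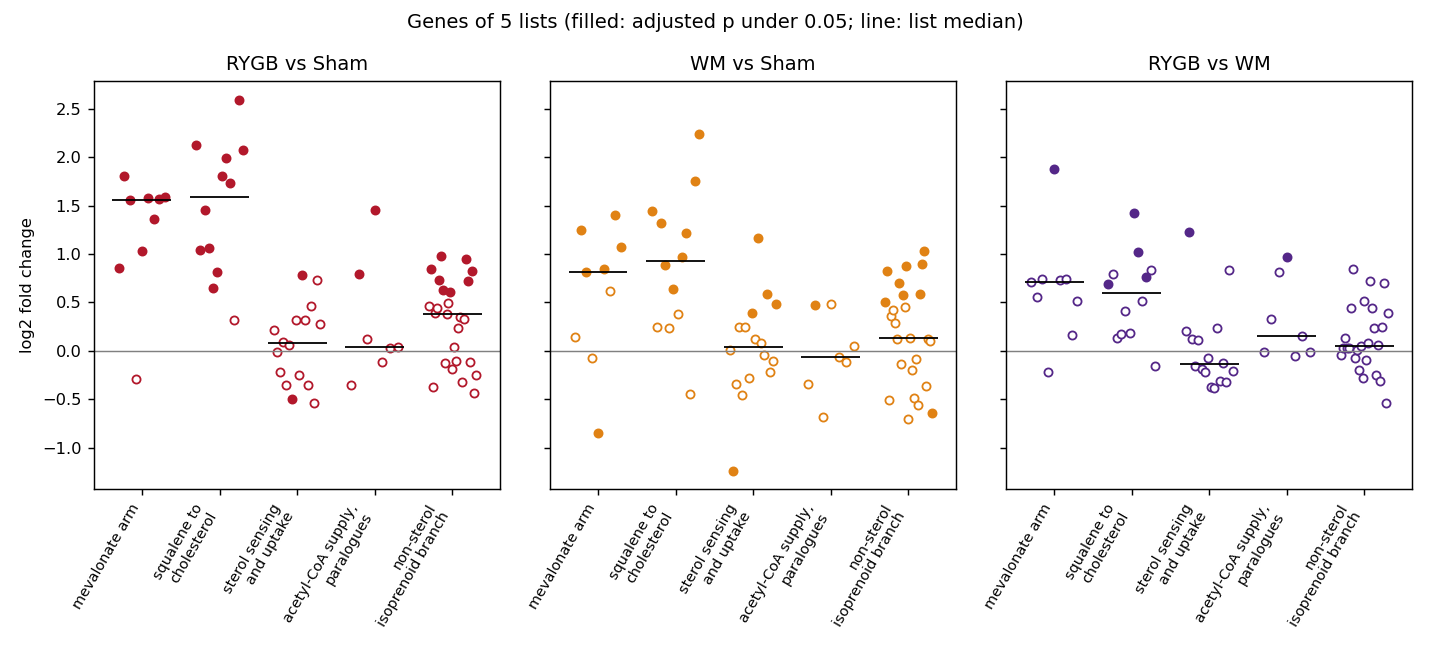
Log2 fold change of each tested gene (1 point a gene) in the 9-gene mevalonate arm and the 4 other lists of the pathway, for each comparison. In RYGB against Sham the mevalonate arm and the squalene to cholesterol list have medians of 1.56 and 1.59, and the other lists 0.078, 0.041 and 0.38.

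Genes of acetyl-CoA supply and of its use in mitochondria, with the Acat2 paralogues Acat1 and Acat3, numbered 7. Acss2, which makes acetyl-CoA from acetate in the cytosol, and Acat3 rose in RYGB against Sham (median 0.041). The rises were 1.46 ± 0.23 (adjusted p = 2.75e-05) and 0.80 ± 0.16 (adjusted p = 0.00046). These 2 of 7 are a share near the 23.7% called over all tested genes. In WM 1 of 7 rose, Acat3, by 0.47 ± 0.16 (adjusted p = 0.0217, list median -0.062), where 31.4% of all tested genes were called. The Acat3 call in WM was lost under library totals (0.14, adjusted p = 0.554). It was also lost without the 3 libraries with acinar transcripts (adjusted p = 0.0524) and without WM 25. Acss2 was the 1 gene of the 7 called in RYGB against WM, at 0.97 ± 0.22 (adjusted p = 0.0175, list median 0.15). In that comparison 1.49% of all tested genes were called. The Acss2 call was lost without the 3 libraries with acinar transcripts (0.87, adjusted p = 0.0835) and without RYGB 10 (adjusted p = 0.0521). Acly, ATP citrate lyase, stood at -0.69 in WM against Sham (adjusted p = 0.0746) and 0.81 in RYGB against WM (adjusted p = 0.229). In WM against Sham it was called lower under library totals (adjusted p = 0.0121) and without Sham 6 (adjusted p = 0.0405) or WM 9 (adjusted p = 0.0463), and with 1 library left out it spanned -0.80 to -0.27, the value nearest 0 being without Sham 14. Slc25a1, the mitochondrial citrate carrier, stood between -0.013 and 0.054.

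The non-sterol isoprenoid branch, which draws on the same intermediates for ubiquinone, dolichol and prenyl groups, held 25 tested genes. In RYGB against Sham 8 of the 25 rose and 0 fell, against 12.7% of all tested genes called higher and 11.0% lower (median 0.38), among them Fnta, a subunit shared by farnesyl and geranylgeranyl transferase, by 0.61 ± 0.13 (adjusted p = 0.000954) and Coq3, of ubiquinone synthesis, by 0.85 ± 0.18 (adjusted p = 0.00129). Under library totals neither was called (adjusted p = 0.222 for Fnta and 0.062 for Coq3). Icmt, which methylates prenylated proteins, stood at 0.038. In WM against Sham 8 rose and Zmpste24 fell (median 0.13), 9 of 25 where 31.4% of all tested genes were called, with Fnta at 0.88 ± 0.13 (adjusted p = 7.72e-06), Coq9 at 0.70 ± 0.14 (adjusted p = 0.000499) and Pdss2 at -0.086. RYGB against WM gave 0 calls of 25 by edgeR (median 0.046), where 1.49% of all tested genes were called. At an unadjusted edgeR p under 0.05, 2 were higher and 2 lower, against 741 higher and 715 lower of 13121 tested genes. DESeq2 gave 1 call of the 25, higher, and 361 calls over all genes. Coq8a had the smallest edgeR p in RYGB against WM, at 0.85 ± 0.23 (adjusted p = 0.0602). It was called by DESeq2 (adjusted p = 0.0215), under library totals (0.0376), by limma-trend (0.0151), after GC and length correction (0.000905), and without WM 20 (0.0178) or WM 25 (0.00425). Trit1 followed at 0.70 ± 0.22 (adjusted p = 0.135; 0.0404 without WM 25), and Dhdds had the largest p, at 0.012.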

How the data were processed

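Liver messenger RNA was measured in 24 libraries, grouped by the labels (8 RYGB, 8 WM, 8 Sham). Per the labels' protocols, RNA came from frozen liver and libraries from a QuantSeq 3′ kit, read for 50 bp in the forward direction. The authors deposited whole-number counts per gene for 14995 genes and a normalized signal, the counts over a size factor of each library. Median-of-ratios factors computed here matched it within a relative difference of 2e-15. Per the submitters' processing notes, R 4.1.2 and DESeq2 1.34 were used. The labels do not state the aligner, the genome build, the use of strand or how multiply matching reads were counted. A 3′ library gives about 1 fragment per transcript, so no division by length was made; priming inside transcripts or a misplaced 3′ end can change a gene's level.

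Genes were kept by filterByExpr (13121), scaled by TMM and fitted over all 24 libraries with no covariate by edgeR 4.0.16 in R 4.3.3 (common biological coefficient of variation 0.398). The SE is the log2 fold change divided by the root of the F statistic. Adjusted p-values are Benjamini-Hochberg over all tested genes. Genes of the 4 pathway lists were named as the 2 with the smallest p and the 1 with the largest p in each of 3 comparisons, with the ratio partners, Srebf2 and Insig1; likeness named the 10 genes with the highest r. Other called genes of the lists are named only to complete a count, after their values were seen. Some listed genes and 1 of the 4 ratios are not reported here; the lists, their counts and the rule for named genes cover the genes that remain, and the ratio p-values stay adjusted over all 12 tests. The members and lists were chosen with earlier results of these data known. Alternatives were DESeq2 1.42.0, RLE scaling, library totals, no filter, 1 CPM in 8 libraries, the compared groups alone, limma-trend 3.58.1 (log2 of normalized signal plus 1), GC and length correction (mgcv 1.9.3), leaving out the 3 libraries with acinar transcripts, and leaving out each library. The scripts were tested on simulated data. Promoters are RefSeq windows of GRCm38.p6.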

Additional observations from a re-analysis of the deposited data

Results flagged for a closer look

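Of 36 groups of 8 values checked, 3 held a library whose gap to the next passed Dixon's 95% limit as a share of the group's range. Chance alone marks about 5% of groups when values are independent and normally distributed. The values checked were CPM and ratios that share genes and livers, so that share is only a rough guide. Acat2 stood at 143 CPM in WM 25, and the next WM liver at 82.6 CPM. The log2 ratio of Acat2 to Acat1 was -0.61 in the same liver, and the next WM liver stood at -2.28. Fdps stood at 276 CPM in RYGB 11, and the next RYGB liver at 180.5 CPM; without RYGB 11, Fdps was 1.41 in RYGB against Sham. The cause of these values was not tested.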

How the results depend on the processing

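Against Sham, the count of the 9 genes called kept within 1.5 times its value under every alternative: 6 to 8 for RYGB and 4 to 6 for WM. When 1 library was left out it was 8 each time for RYGB, 5 to 6 for WM and 1 to 3 for RYGB against WM, where 1 was called at first and more without WM 1, WM 20 or WM 25. RYGB against WM gave 2 called genes by DESeq2, 2 under library totals, 2 by limma-trend and 3 after the GC and length correction, and over all genes 361 by DESeq2, 121 with the compared groups alone and 304 after that correction, against 196. After it, 3 ratio differences passed that had not: Fdft1 to Ggps1 in RYGB against WM (0.82, exact permutation adjusted p = 0.0314), and Acat2 to Acat1 in WM against Sham (0.74, 0.0151) and in RYGB against WM (0.70, 0.0138). With 1 library left out these 3 spanned 0.65 to 1.01, 0.28 to 0.72 and 0.58 to 0.93, and passed without WM 25 or RYGB 22 (both RYGB against WM ratios) or without Sham 23. These ratio corrections and the other likeness settings were chosen after seeing the data. Signs turned only for log2 fold changes that had not passed. RYGB against Sham under library totals: Insig1 -0.15, Sc5d -0.045, Slc25a1 -0.29, Icmt -0.32. WM against Sham under library totals: Acat2 -0.17, Insig1 -0.30, Dhcr7 -0.13, Slc25a1 -0.29. After the GC and length correction: Slc25a1 -0.17 in RYGB against Sham, Dhcr7 -0.078 and Slc25a1 -0.23 in WM against Sham, and Acat1 0.0030 and Slc25a1 0.069 in RYGB against WM. By limma-trend Insig1 was -0.039 in WM against Sham and Acat1 0.033 in RYGB against WM. Without the 3 libraries with acinar transcripts: Insig2 0.16 and Slc25a1 -0.21 in RYGB against Sham, Ggps1 0.11 and Slc25a1 -0.0014 in WM against Sham, and Mvk -0.042, Acat1 0.058 and Dhdds -0.050 in RYGB against WM. With 1 library left out, ranges spanned 0 for Insig2 (-0.13 to 0.070), Slc25a1 (-0.082 to 0.18) and Icmt (-0.042 to 0.16) in RYGB against Sham, for Acat2 (-0.053 to 0.29), Ggps1 (-0.14 to 0.12), Insig1 (-0.16 to 0.14), Dhcr7 (-0.026 to 0.36), Slc25a1 (-0.13 to 0.19) and Pdss2 (-0.21 to 0.0047) in WM against Sham, and for Mvk (-0.013 to 0.34), Acat1 (-0.088 to 0.11), Mylip (-0.83 to 0.014), Slc25a1 (-0.13 to 0.17) and Dhdds (-0.068 to 0.11) in RYGB against WM. The cause of these changes was not tested. Idi1, Ggps1 and Mvk have the lowest counts of the 9, and Mvd has the largest SE. No paired analysis was possible because the groups share no replicate numbers.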
